A study of Tribolium castaneum with 9 samples.

Results

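Ion channels, ion pumps, ion exchangers and zinc transporters of the red flour beetle Tribolium castaneum were chosen by the words of each gene's first protein match in the deposited annotation. A gene was taken where that title named a channel, an exchanger, the sodium/potassium or calcium-transporting ATPase, chloride, potassium, a zinc transporter or a bestrophin. Proton pumps of the V-type, aquaporins, receptors for acetylcholine and gamma-aminobutyric acid, ryanodine receptors and titles on guanine nucleotides were left out. The rule found 95 genes of 5467 in the deposited table, 34 of them potassium channels. The study sequenced total RNA of adult beetles of a susceptible phenotype after treatment with carbonyl sulfide (COS), a fumigant gas used against pests of stored grain. There were 9 libraries: 3 of fat body from COS-treated beetles, 3 of Malpighian tubules from COS-treated beetles, and 3 of whole body from beetles labelled as controls. The labels give neither the dose of COS nor the time of exposure, and they do not explain the number 70 that the fat body samples carry in their names. Against the control, organ and treatment change together and cannot be told apart. Fat body over tubules compares treated organs with each other. In tissue RNA of this kind, fewer cells of a type and less RNA per cell cannot be told apart.

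Cells hold a low sodium and a high potassium concentration through the sodium/potassium ATPase, and the stored gradients drive exchangers that move calcium, protons and other ions. Channels let ions run down these gradients, and in excitable cells their opening and closing makes electrical signals. In insect Malpighian tubules, the excretory organ, a V-type proton pump energizes the secretion of potassium and sodium salt, and in Drosophila inward rectifier potassium channels are an entry route for potassium into the secreting cells. The fat body stores and converts nutrients and is not an electrically excitable tissue. In muscle, calcium enters through voltage-dependent channels, is released through ryanodine receptors and is pumped back by the calcium ATPase of the sarcoplasmic reticulum.

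The libraries held 13435869 to 19866421 reads, and levels are given as CPM, read counts scaled to library size. Every gene listed had moved by 1 or more on the log2 scale somewhere in the authors' deposited table, so counts of changed genes are not independent evidence of change. The 9 fat body marker genes (vitellogenins, hexamerins and apolipophorins) summed to 15479 to 24725 CPM in fat body, 1063 to 1277 CPM in tubules and 4275 to 5912 CPM in control. The 11 V-type proton ATPase genes, high in tubule cells, summed to 1773 to 1959 CPM in fat body, 5645 to 7554 CPM in tubules and 1743 to 1973 CPM in control. Both sums were highest in the labelled organ, but not every gene of the lists was: the vitellogenins, apolipophorins and HEX5 rose in fat body over control (5 genes), while 4 hexamerin-type genes fell, among them HEX1B with 26.6 to 64.0 CPM in fat body, 14.3 to 34.99 CPM in tubules and 204 to 253 CPM in control. V-type ATPase subunit G (LOC658882) was highest in fat body, with 40.6 to 52.5 CPM there, 4.35 to 11.2 CPM in tubules and 20.2 to 24.6 CPM in control. Markers of other tissues, in lists matched by title words, were detected in all 9 libraries. The muscle list includes a non-muscle myosin heavy chain, which need not mark muscle. The nervous system list includes extended synaptotagmins, neurexin-4 and a CUGBP Elav-like protein, which need not mark nerve. The 29 muscle genes summed to 38814 to 48361 CPM in fat body, 2420 to 3172 CPM in tubules and 17062 to 17337 CPM in control, and the 19 nervous system genes to 961 to 1199 CPM in fat body, 679 to 747 CPM in tubules and 672 to 682 CPM in control. The vitellogenin receptor, an oocyte gene, had 7.02 to 51.6 CPM in fat body, 202 to 857 CPM in tubules and 34.2 to 105 CPM in control. Control replicate 3 and fat body replicate 1 stood apart from the other libraries of their groups: of 3 pairs of control libraries, the pair without replicate 3 had a chi-square of 21.2 per degree of freedom, against 87.5 and 89.6 for the pairs with it. The corresponding values were 61.2 for fat body replicates 2 and 3, against 142 and 128 for the pairs with replicate 1. The tubule pairs had 89.8, 89.0 and 108.5, so the pairs with control replicate 3 were about as far apart as tubule replicates. Nothing in the labels says that replicates came from separate animals, so p-values measure only the spread between these libraries, which may be technical.

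Of the 95 members, 94 passed the filter on low counts, and the amiloride-type sodium channel LOC107399289 did not. In fat body over control, 33 members rose and 34 fell, which is 35.1% and 36.2% of the members tested, beside 32.2% and 36.9% of all 5358 genes tested. In tubules over control, 17 rose and 33 fell, or 18.1% and 35.1%, beside 32.6% and 30.2% of all genes tested. In fat body over tubules, 44 were higher and 28 lower, or 46.8% and 29.8%, beside 38.8% and 41% of all genes tested. The share that rose in tubules over control was therefore below the share among all genes, while the shares for fat body over control were near it. These shares over all genes are the background for the counts given below by ion group, subfamily or marker list. The median log2 fold change of the members was -0.18 in fat body over control, beside -0.22 over all genes tested, -0.78 in tubules over control, beside -0.12, and 0.35 in fat body over tubules, beside -0.24. The libraries of the groups did not overlap for 73 members in fat body over control (77.7%, beside 78.0% of all genes tested). They did not overlap for 63 members in tubules over control (67.0%, beside 72.4%) and for 74 in fat body over tubules (78.7%, beside 80.3%). The shares of the members were thus near or below those of all genes tested. The number that fell in fat body over control was 19 without control replicate 3, 18 without fat body replicate 3 and 28 without both control replicate 3 and fat body replicate 1. Library totals alone as the scaling gave 26 higher and 42 lower members in fat body over control, and the authors' size factors gave 16 higher and 53 lower members in tubules over control.

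**Figure D1:**
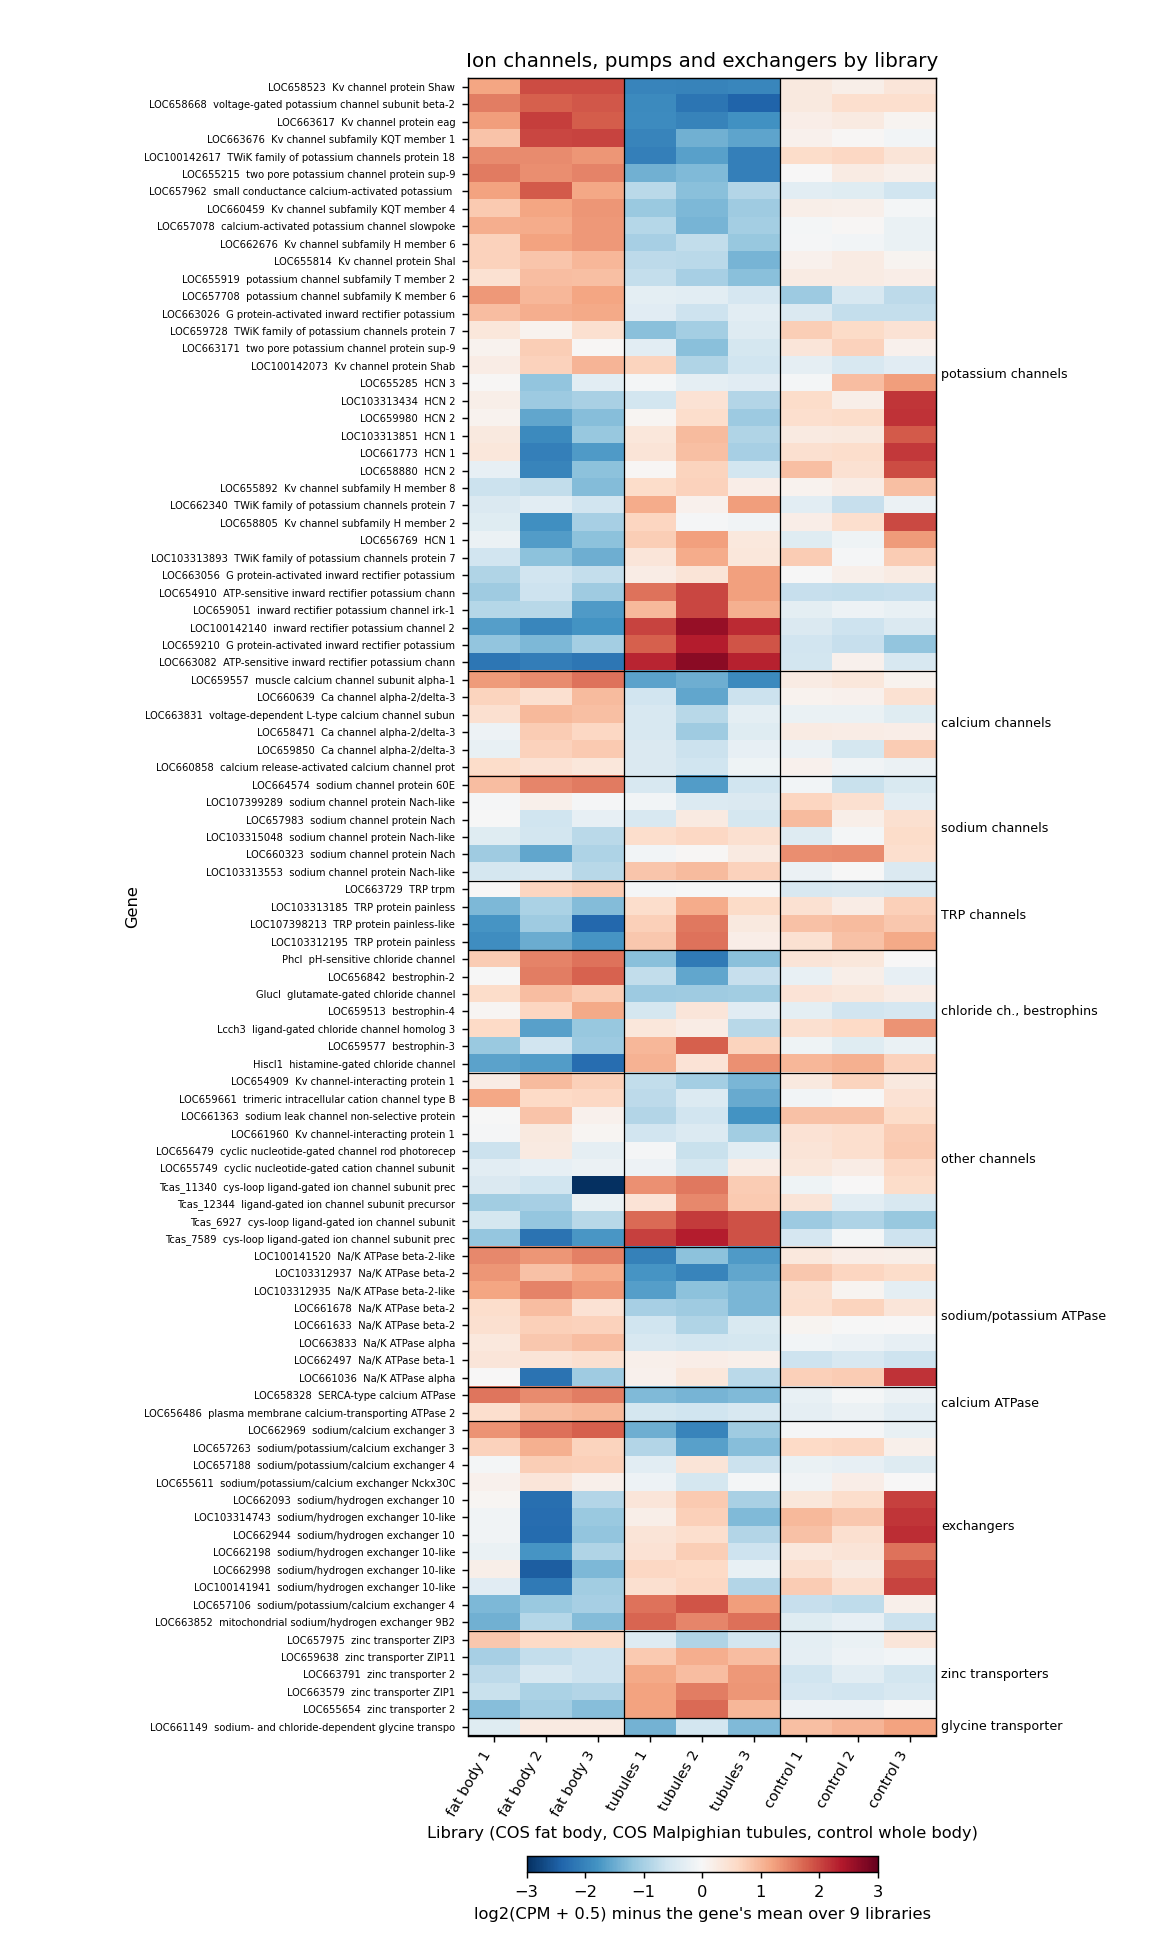
Heatmap of 95 genes (rows, by ion group) in 9 libraries (columns), coloured by log2(CPM + 0.5) minus the gene's mean over the libraries. Blocks of genes high in fat body and low in tubules (upper potassium channels, calcium channels, ATPases) and high in tubules (inward rectifiers at the foot of the potassium channels, zinc transporters) stand out, and most HCN channels and all sodium/hydrogen exchanger 10 genes are highest in control replicate 3.

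The calls fell into a few patterns. These were counted for the members only and not over all genes tested, so they are not shown to be particular to the members. Of the 94 members tested, 30 were higher in fat body than in both tubules and control, and 18 were lower in fat body than in both. Of the 17 members that rose in tubules over control, 16 were also lower in fat body than in tubules. Opposite calls against the control were made for 27 members, 19 of them higher in fat body and lower in tubules, and 8 the other way. Of the 8, 5 were still called in both directions without control replicate 3 and 4 with DESeq2, and of the 19, 17 were without control replicate 3. Only 1 gene, the beta-1 subunit of the sodium/potassium ATPase, rose in both organs over control, and 2 fell in both. By ion, the 34 potassium channels held the widest mix: 15 rose and 13 fell in fat body over control, 6 rose and 13 fell in tubules over control, and 16 were higher and 10 lower in fat body than in tubules. The 13 that fell in fat body over control were 7 without control replicate 3, 7 without fat body replicate 2 and 6 without fat body replicate 3. Of 12 exchangers, 2 rose and 8 fell in fat body over control, with 4 falling without control replicate 3, 5 without fat body replicate 2 and 3 without fat body replicate 3. Of 7 chloride channels and bestrophins, 4 rose and 1 fell in fat body over control, and 2 rose when any 1 of control replicates 1 and 3 and fat body replicates 2 and 3 was left out. Since both organs were set against the same 3 control libraries, these patterns share whatever is particular to those libraries.

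**Figure D2:**
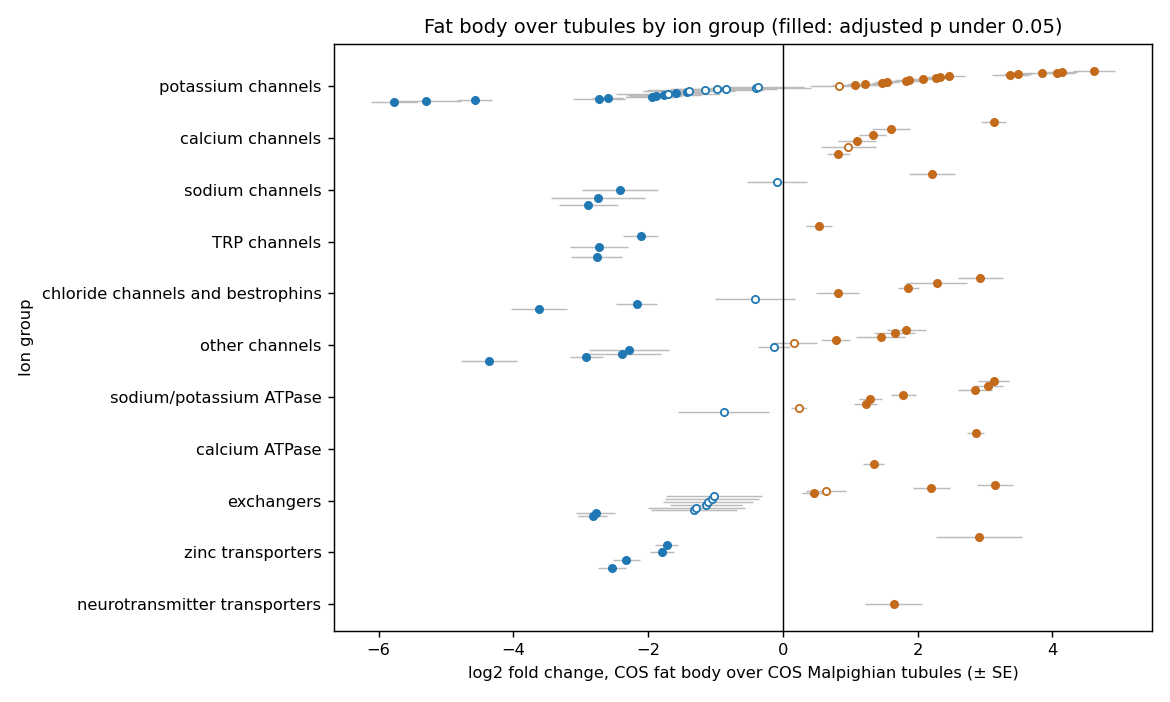
Log2 fold change of fat body over tubules (x axis, points with ± SE bars) for the 94 tested members by ion group (y axis), filled where the adjusted p was under 0.05. Calcium channels and calcium ATPases lie to the right, 4 of 5 zinc transporters to the left, and potassium channels reach from -5.77 to 4.62.

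Inward rectifier potassium channels, which let potassium into the cell more readily than out, held the members with the highest rise in tubules over control and the lowest values in fat body over tubules. Of the 7 inward rectifier genes, 5 rose in tubules over control and none passed in the other direction, and 6 were lower in fat body than in tubules while 1 was higher. LOC663082, titled ATP-sensitive inward rectifier 11, had 0.333, 0.398 and 0.338 CPM in fat body, 17.9, 23.95 and 17.99 CPM in tubules and 2.07, 3.61 and 2.19 CPM in control. The groups did not overlap, with fat body lowest and tubules highest. Its log2 fold change (± SE here and below) was -2.85 ± 0.33 in fat body over control, 2.92 ± 0.28 in tubules over control (adjusted p = 3.2e-05) and -5.77 ± 0.34 in fat body over tubules, the lowest of all members. LOC100142140, titled inward rectifier 2, had 1.40, 1.02 and 1.22 CPM in fat body, 23.8, 35.9 and 27.4 CPM in tubules and 3.89, 3.35 and 3.89 CPM in control. Its groups were again apart in the same order, with log2 fold changes of -1.61 ± 0.24, 2.97 ± 0.23 (adjusted p = 1.2e-05) and -4.58 ± 0.26.

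LOC659210, titled G protein-activated inward rectifier 4, had 0.133, 0.0568 and 0.203 CPM in fat body, 4.45, 6.78 and 4.75 CPM in tubules and 0.454, 0.380 and 0.125 CPM in control. The fat body values rest on 2, 1 and 3 reads and the control values on 7, 6 and 2 reads, and these ranges overlap, while all 3 tubule libraries lie far above them. The log2 fold change was 4.03 ± 0.45 (adjusted p = 8e-05) in tubules over control and -5.30 ± 0.51 in fat body over tubules. LOC654910, titled ATP-sensitive inward rectifier 12, had 10.5, 14.5 and 10.7 CPM in fat body, 70.8, 92.4 and 54.2 CPM in tubules and 13.8, 13.7 and 13.97 CPM in control. Tubules were above the other groups, which overlapped, and the log2 fold change of tubules over control was 2.39 ± 0.23 (adjusted p = 3.7e-05). The irk-1 gene LOC659051, a neighbour of LOC659210, had 2.80, 2.90 and 1.35 CPM in fat body and 11.2, 23.7 and 12.1 CPM in tubules. In control it had 4.41, 4.94 and 4.64 CPM, and the 3 ranges do not overlap. Its log2 fold change in tubules over control was 1.75 ± 0.37 (adjusted p = 0.0029). In fat body over control it was -0.98 ± 0.38 (adjusted p = 0.044), a call that was lost when any 1 of the 3 fat body and 3 control libraries was left out (adjusted p = 0.0502 to 0.131).

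The remaining inward rectifiers, both titled G protein-activated channel 3, differed from these. LOC663026 had 199, 223 and 230.1 CPM in fat body, 82.9, 68.0 and 84.2 CPM in tubules and 76.9, 63.3 and 63.2 CPM in control. Fat body was above both other groups, which overlapped, with log2 fold changes of 1.68 ± 0.16 (adjusted p = 8.5e-05) over control and 1.47 ± 0.16 over tubules, and of 0.21 ± 0.15 (adjusted p = 0.25) in tubules over control. LOC663056 had 0.533 to 0.795 CPM in fat body, 1.76 to 4.08 CPM in tubules and 1.43 to 1.82 CPM in control, and was lower in fat body than in tubules, at -1.95 ± 0.39 (adjusted p = 0.0013). Summed over the 7 genes, inward rectifier RNA was 215, 243 and 245 CPM in fat body, 213, 253 and 205 CPM in tubules and 103, 90.9 and 89.9 CPM in control. Both organs were thus above control in the sum, and they overlapped each other. In fat body nearly all of the sum was LOC663026, while in tubules LOC663026 and LOC654910 held most of it. Against control in fat body, 4 of the 7 fell. Of these 4, LOC659051 and LOC663056 did not pass without control replicate 3 (adjusted p = 0.0926 and 0.0719), without fat body replicate 1, without fat body replicate 3 or with DESeq2.

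The genes of this family lie in groups in the genome. In the order of RefSeq genes on assembly icTriCast1.1, LOC663082, LOC654910, LOC663056 and LOC663026 follow each other with 0 genes between them, and LOC659051 is next to LOC659210. The first run holds the members of the family with the lowest and the highest value in fat body over tubules, LOC663082 and LOC663026, so these neighbours did not share a pattern. How reads that match several close copies were counted is not given in the sources used here, so the split of reads among such neighbours is uncertain.

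**Figure D3:**
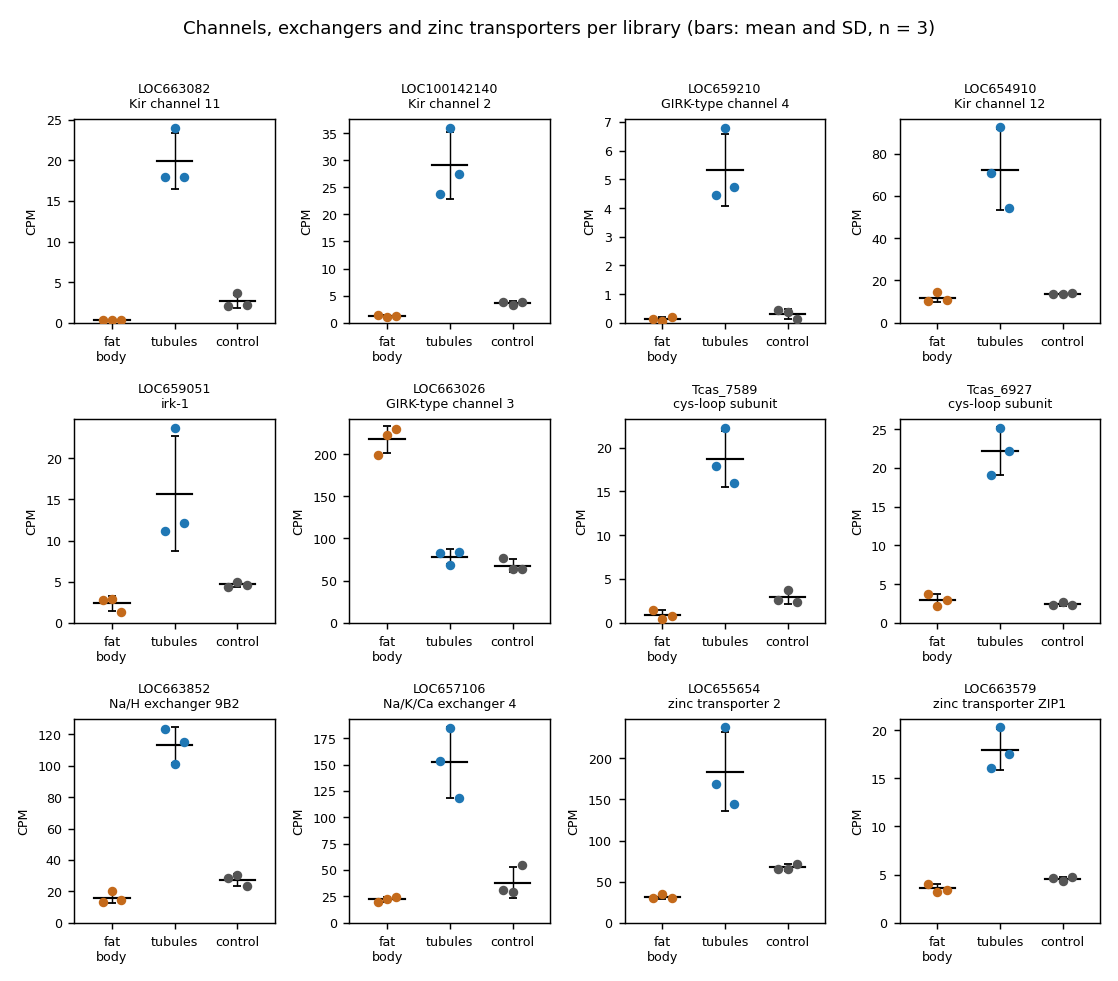
CPM per library (points, y axis from 0) of 6 inward rectifiers, 2 cys-loop channel subunits, 2 exchangers and 2 zinc transporters in fat body, tubules and control, with mean and SD bars (n = 3). In 11 of the 12 panels tubules lie above both other groups; in the panel of LOC663026 fat body does, with 199, 223 and 230.1 CPM.

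Ligand-gated channel subunits of the cys-loop family, whose relatives include the receptors for acetylcholine and glycine, were a further group high in tubules. All 4 genes with such titles were lower in fat body than in tubules, and 2 of 4 rose in tubules over control. Tcas_6927 had 3.67, 2.22 and 2.90 CPM in fat body, 19.02, 25.2 and 22.2 CPM in tubules and 2.33, 2.66 and 2.26 CPM in control. Tubules lay above the other groups, which overlapped, with a log2 fold change of 3.19 ± 0.25 (adjusted p = 1.3e-05) over control and of -2.92 ± 0.25 in fat body over tubules. Tcas_7589 had 1.47, 0.454 and 0.810 CPM in fat body, 17.9, 22.2 and 15.98 CPM in tubules and 2.59, 3.73 and 2.38 CPM in control, in 3 ranges that do not overlap, with log2 fold changes of -1.68 ± 0.40 in fat body over control, 2.68 ± 0.38 in tubules over control and -4.36 ± 0.42 (adjusted p = 1.4e-05) in fat body over tubules.

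Tcas_11340 lies beside those genes in the genome, and its Drosophila counterpart, known as Hodor, is a chloride channel gated by zinc. It had 35.4, 31.6 and 5.27 CPM in fat body, 126, 146 and 81.8 CPM in tubules and 44.1, 48.3 and 70.6 CPM in control. Tubule libraries were the highest and fat body replicate 3 the lowest. It was lower in fat body than in tubules, at -2.29 ± 0.59 (adjusted p = 0.0058), and its value in tubules over control was 1.12 ± 0.57 (adjusted p = 0.11). Tcas_12344, at 0.267 to 0.878 CPM in fat body, 1.60 to 3.75 CPM in tubules and 0.627 to 1.56 CPM in control, was lower in fat body than in tubules, at -2.39 ± 0.58 (adjusted p = 0.0039). Without fat body replicate 3, all 4 of these genes passed as higher in tubules over control.

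Among exchangers, LOC663852 and LOC657106 followed the tubule pattern. LOC663852 is titled mitochondrial sodium/hydrogen exchanger 9B2, of a family of proteins that trade sodium for protons. It had 13.3, 20.1 and 14.6 CPM in fat body, 123, 101 and 115 CPM in tubules and 28.3, 30.6 and 23.3 CPM in control. Tubules were above control and fat body below it, with log2 fold changes of -0.78 ± 0.20, 2.05 ± 0.21 (adjusted p = 4.4e-05) in tubules over control and -2.82 ± 0.21 in fat body over tubules. The first of these did not pass with DESeq2 (adjusted p = 0.0723). LOC657106, a sodium/potassium/calcium exchanger 4, which uses sodium and potassium gradients to carry calcium, had 19.2, 22.7 and 24.4 CPM in fat body, 153, 185 and 118 CPM in tubules and 30.6, 29.05 and 54.6 CPM in control. The 3 ranges do not overlap, and control replicate 3 was above the other control libraries. Its log2 fold change was 1.997 ± 0.28 (adjusted p = 0.00029) in tubules over control and -2.78 ± 0.29 in fat body over tubules. The difference of -0.78 ± 0.28 in fat body over control did not pass without control replicate 3 (-0.37, adjusted p = 0.207) or when any 1 of the 3 fat body libraries was left out (adjusted p = 0.0548 to 0.0792).

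The neighbours of these exchangers went other ways. LOC657263, the sodium/potassium/calcium exchanger 3 of the same run, had 14.3, 18.8 and 14.04 CPM in fat body, 4.45, 2.45 and 3.28 CPM in tubules and 13.4, 13.5 and 9.59 CPM in control. It was lowest in tubules, at -1.83 ± 0.28 (adjusted p = 0.00042) against control, and was above its tubule level in fat body by 2.20 ± 0.28. LOC663831, the L-type calcium channel subunit beta-1 beside LOC663852, had 64.6 to 89.9 CPM in fat body, 25.6 to 37.3 CPM in tubules and 35.8 to 40.2 CPM in control, and was above its tubule level in fat body by 1.33 ± 0.20 (adjusted p = 0.00019).

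Of the anion channels of the bestrophin family, which calcium opens in the relatives studied, LOC659577 (bestrophin-3) had 11.7, 17.3 and 11.9 CPM in fat body, 52.0, 91.0 and 41.5 CPM in tubules and 23.5, 19.997 and 22.5 CPM in control. Tubules were above control and fat body below it without overlap, and tubules over control was 1.48 ± 0.30 (adjusted p = 0.0022). The neighbouring LOC659513 (bestrophin-4), with 38.05 to 80.9 CPM in fat body, 24.9 to 46.9 CPM in tubules and 24.4 to 29.7 CPM in control, rose by 1.14 ± 0.32 (adjusted p = 0.012) in fat body over control. Its difference of 0.81 ± 0.32 between fat body and tubules did not pass when any 1 of fat body replicates 2 and 3, tubule replicates 1 and 3 and control replicates 1 and 2 was left out (adjusted p = 0.0509 to 0.158). LOC656842 (bestrophin-2) had 14.99, 44.1 and 51.9 CPM in fat body, 8.84, 4.76 and 9.10 CPM in tubules and 12.8, 16.9 and 12.5 CPM in control, with fat body replicate 1 far below the other fat body libraries. It was higher in fat body by 1.39 ± 0.44 (adjusted p = 0.02) over control and 2.29 ± 0.45 (adjusted p = 0.0012) over tubules. The call over control was lost when any 1 of fat body replicates 2 and 3 and control replicates 1 and 3 was left out (adjusted p = 0.0536 to 0.0764).

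Most zinc transporters were high in tubules. Zinc transporter 2 belongs to a family that moves zinc out of the cytosol into vesicles or out of the cell, and ZIP proteins bring zinc into the cytosol. In Drosophila the tubules store and excrete zinc. Of the 5 members, 4 rose in tubules over control and the same 4 were lower in fat body than in tubules. LOC655654 (zinc transporter 2) had 29.8, 35.5 and 29.6 CPM in fat body, 169, 238 and 145 CPM in tubules and 65.2, 64.9 and 71.9 CPM in control. The ranges do not overlap, and the log2 fold changes were -1.09 ± 0.20 (adjusted p = 0.0016) in fat body over control, 1.45 ± 0.20 (adjusted p = 0.00026) in tubules over control and -2.54 ± 0.21 in fat body over tubules. LOC663579 (ZIP1) had 4.06, 3.24 and 3.44 CPM in fat body, 16.1, 20.3 and 17.5 CPM in tubules and 4.60, 4.37 and 4.70 CPM in control. Tubules were well above, with 1.98 ± 0.20 (adjusted p = 4.2e-05) over control and -2.33 ± 0.20 in fat body over tubules.

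LOC659638 (ZIP11) had 21.3, 26.2 and 28.02 CPM in fat body, 74.5, 92.2 and 82.7 CPM in tubules and 35.5, 38.98 and 40.6 CPM in control. Tubules were highest, by 1.12 ± 0.17 (adjusted p = 0.00039) over control, and fat body lowest. The log2 fold change of -0.61 ± 0.17 in fat body over control did not pass without control replicate 3 (-0.51, adjusted p = 0.078). LOC663791, also titled zinc transporter 2, had 13.5 to 16.8 CPM in fat body, 45.4 to 59.4 CPM in tubules and 15.5 to 18.8 CPM in control and rose by 1.65 ± 0.18 (adjusted p = 6.1e-05) in tubules over control. LOC657975 (ZIP3) was the exception, at 1.13, 0.909 and 0.878 CPM in fat body, 0.207, 0 and 0.134 CPM in tubules and 0.259, 0.316 and 0.689 CPM in control. Each tubule library held 0 to 4 of its reads, and it was above its tubule level in fat body by 2.91 ± 0.64 (adjusted p = 0.0023).

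The proton pump genes were mostly high in tubules as well. They served above as markers of the tubules because such genes are high in tubule cells, so this adds no separate support. Of the 11 V-type proton ATPase genes, 8 rose and 1 fell in tubules over control, and 9 were lower and 1 higher in fat body than in tubules. In fat body over control 1 rose and 2 fell, with a median log2 fold change of -0.0004, whereas several of the tubule-high members above fell there. All 3 genes titled as a diuretic hormone or its receptor rose in tubules over control, and all 3 were lower in fat body than in tubules. Whether the higher levels come with the share of tubule cells in the library was not tested.

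Calcium pumps and the channels of muscle excitation had the reverse pattern. Both calcium ATPases rose in fat body over control, 3 of 6 calcium channel genes rose there and none fell, and 3 of 6 calcium channel genes fell in tubules over control (6 of 6 with the authors' size factors). The sarcoplasmic reticulum pump LOC658328 had 4618, 4071 and 4396 CPM in fat body, 609, 578 and 609 CPM in tubules and 1299, 1456 and 1344 CPM in control. Fat body was above control and tubules below it, with no overlap. The log2 fold changes were 1.67 ± 0.12 (adjusted p = 4.3e-05) in fat body over control, -1.19 ± 0.12 (adjusted p = 4.4e-05) in tubules over control and 2.87 ± 0.13 in fat body over tubules. The plasma membrane pump LOC656486, which expels calcium from the cell, had 537, 717 and 748 CPM in fat body, 264, 249.7 and 272 CPM in tubules and 318, 338 and 306 CPM in control. It was highest in fat body, by 1.06 ± 0.15 (adjusted p = 0.00051) over control and 1.35 ± 0.15 over tubules, and tubules over control was -0.29 ± 0.15 (adjusted p = 0.12).

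The muscle calcium channel subunit alpha-1 LOC659557, the pore of the voltage-dependent channel, had 162, 181 and 209 CPM in fat body, 21.8, 23.8 and 17.4 CPM in tubules and 79.97, 84.4 and 71.9 CPM in control. The 3 ranges are apart. Its log2 fold change was 1.22 ± 0.17 (adjusted p = 0.00046) in fat body over control, -1.91 ± 0.18 (adjusted p = 2.8e-05) in tubules over control and 3.13 ± 0.18 in fat body over tubules. The sodium/calcium exchanger 3 LOC662969, which clears calcium from excitable cells, had 54.4, 66.7 and 74.3 CPM in fat body, 7.29, 4.91 and 9.83 CPM in tubules and 20.6, 20.4 and 17.98 CPM in control. It followed the same order, with 1.73 ± 0.25, -1.42 ± 0.25 and 3.15 ± 0.27. The sodium channel protein 60E LOC664574, which in the insects studied conducts calcium as well, had 39.7, 58.6 and 61.8 CPM in fat body, 14.7, 6.20 and 13.6 CPM in tubules and 19.6, 12.8 and 15.1 CPM in control. Fat body was above the other groups, which overlapped, by 1.75 ± 0.34 (adjusted p = 0.0021) over control and 2.21 ± 0.35 over tubules.

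**Figure D4:**
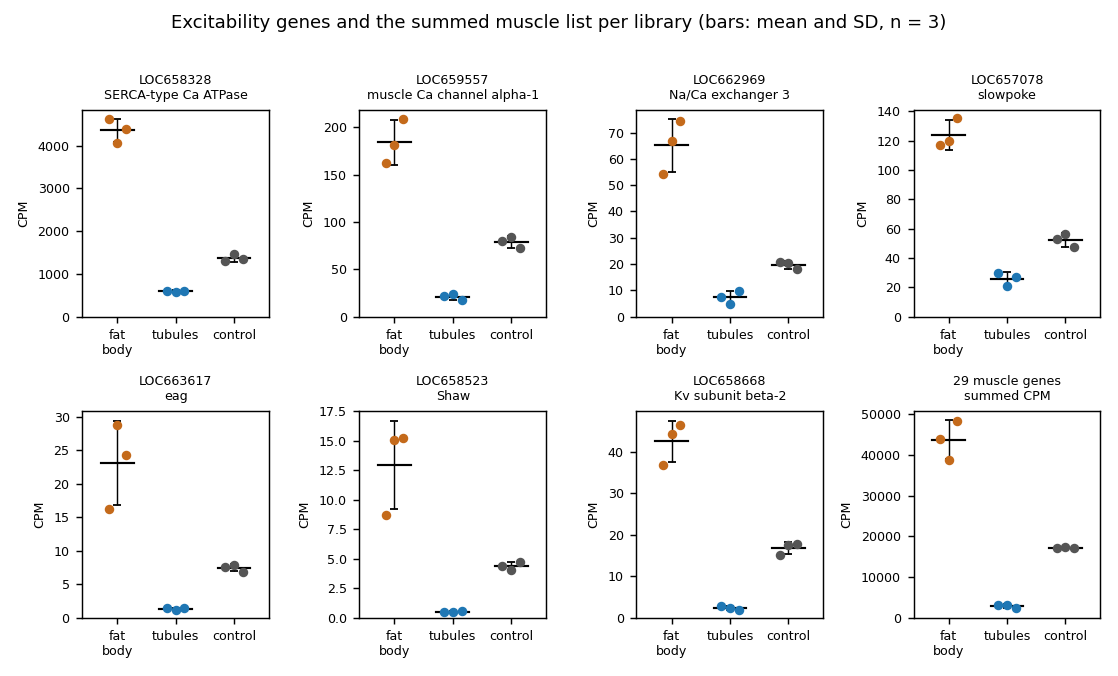
CPM per library (points, y axis from 0) of 7 genes of calcium handling and potassium currents, and the summed CPM of 29 muscle genes, in fat body, tubules and control, with mean and SD bars (n = 3). In each panel fat body is highest, control between and tubules lowest, as in the muscle sum of 38814 to 48361 CPM in fat body, 2420 to 3172 CPM in tubules and 17062 to 17337 CPM in control.

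Changes in the other calcium channel genes were smaller. LOC660858, the pore of the store-operated calcium entry channel (titled calcium release-activated calcium channel protein 1), had 73.5 to 84.6 CPM in fat body, 38.2 to 52.8 CPM in tubules and 51.6 to 63.1 CPM in control. It was above its tubule level in fat body by 0.82 ± 0.17 (adjusted p = 0.0017). Its value over control, 0.49 ± 0.17 (adjusted p = 0.03), did not pass when any 1 of fat body replicates 1 and 2 and control replicates 2 and 3 was left out (adjusted p = 0.0684 to 0.106). Of 3 auxiliary subunits titled alpha-2/delta-3, which help bring the channel to the membrane, 2 were higher in fat body than in tubules and none passed in fat body over control. Among them LOC658471 had 11.9 to 22.7 CPM in fat body, 6.06 to 10.1 CPM in tubules and 15.2 to 15.6 CPM in control. Its log2 fold change of -0.85 ± 0.28 (adjusted p = 0.026) in tubules over control did not pass without tubule replicate 2 or when any 1 of the 3 control libraries was left out (adjusted p = 0.0614 to 0.0822).

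Voltage-gated potassium channels, which end the electrical signal in nerve and muscle, mostly rose in fat body. Of 10 genes with such titles, which include the auxiliary subunit LOC658668, 8 rose and 2 fell in fat body over control, and 7 fell and none rose in tubules over control. A rise with adjusted p = 0.044 among the 8 did not pass when any 1 of fat body replicates 2 and 3 and the 3 control libraries was left out (adjusted p = 0.0804 to 0.137). LOC658523 (Shaw) had 8.66, 15.1 and 15.2 CPM in fat body, 0.517, 0.505 and 0.535 CPM in tubules and 4.41, 4.05 and 4.70 CPM in control. The 3 ranges are apart, and at 4.62 ± 0.31 (adjusted p = 2.5e-06) its difference between fat body and tubules was the highest of all members. LOC663617 (eag) had 16.3, 28.7 and 24.2 CPM in fat body, 1.40, 1.23 and 1.47 CPM in tubules and 7.52, 7.91 and 6.89 CPM in control. It was 1.63 ± 0.24 (adjusted p = 0.00054) in fat body over control, -2.44 ± 0.26 (adjusted p = 6e-05) in tubules over control and 4.07 ± 0.27 in fat body over tubules. LOC663676 (KQT member 1) had 8.996, 20.8 and 21.1 CPM in fat body, 0.827, 1.44 and 1.27 CPM in tubules and 5.25, 4.94 and 4.51 CPM in control, in 3 separate ranges and with fat body replicate 1 below the other fat body libraries, and its values were 1.79 ± 0.35, -2.06 ± 0.38 and 3.85 ± 0.39.

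Others of this family did the same with smaller differences. LOC660459 (KQT member 4), LOC662676 (H member 6, of the eag family) and LOC655814 (Shal, which carries the transient current of nerve cells) were above their tubule levels in fat body by 2.33 ± 0.19, 2.08 ± 0.20 and 1.87 ± 0.21, in that order. The auxiliary subunit beta-2 LOC658668, which binds the inside of voltage-gated channels, had 36.9, 44.3 and 46.4 CPM in fat body, 2.95, 2.31 and 1.94 CPM in tubules and 15.2, 17.6 and 17.7 CPM in control. It was 1.34 ± 0.19 (adjusted p = 0.00053) in fat body over control, -2.80 ± 0.21 (adjusted p = 1.1e-05) in tubules over control and 4.14 ± 0.22 in fat body over tubules. Of both genes titled Kv channel-interacting protein 1, which are calcium-binding partners of Shal-type channels in mammals, neither passed in fat body over control and both fell in tubules over control. Among them LOC654909 had 7.86 to 13.3 CPM in fat body, 2.27 to 3.77 CPM in tubules and 8.21 to 10.9 CPM in control.

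All 3 potassium channels opened by calcium or sodium rose in fat body over control, and all 3 were higher in fat body than in tubules. The rise of LOC655919 (subfamily T member 2), over control was 0.56 ± 0.21 (adjusted p = 0.038) and did not pass when any 1 of fat body replicates 2 and 3 and the 3 control libraries was left out (adjusted p = 0.0831 to 0.115). LOC657078 (slowpoke), opened by calcium and voltage together, had 117, 119.6 and 135 CPM in fat body, 29.9, 20.6 and 26.8 CPM in tubules and 52.9, 56.5 and 47.5 CPM in control. Fat body was highest and tubules lowest, with 1.25 ± 0.18 (adjusted p = 0.00047) in fat body over control, -1.02 ± 0.18 (adjusted p = 0.0009) in tubules over control and 2.27 ± 0.18 between the organs. LOC657962, of the small conductance type, had 39.2, 60.8 and 38.2 CPM in fat body, 9.41, 6.71 and 8.89 CPM in tubules and 13.2, 12.97 and 10.9 CPM in control. Its rise in fat body over control was 1.90 ± 0.24 (adjusted p = 0.00028), and tubules over control was -0.57 ± 0.24 (adjusted p = 0.061).

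Two-pore potassium channels, which set the resting potential and stay open at rest, were mixed. Of 7 genes, 3 rose and 1 fell in fat body over control, 1 rose and 4 fell in tubules over control, and 5 were higher and 2 lower in fat body than in tubules. LOC657708 (subfamily K member 6) had 429, 352 and 399.7 CPM in fat body, 142, 139.9 and 124 CPM in tubules and 82.6, 125 and 101 CPM in control. Fat body lay above the other groups, which overlapped, with 1.93 ± 0.18 (adjusted p = 8.5e-05) in fat body over control, the highest of all members there, and 0.39 ± 0.18 (adjusted p = 0.079) in tubules over control. LOC100142617 (TWiK family protein 18) had 33.3, 33.4 and 31.1 CPM in fat body, 2.53, 3.61 and 2.54 CPM in tubules and 18.02, 19.05 and 15.9 CPM in control, in 3 separate ranges, and was -2.61 ± 0.20 in tubules over control and 3.49 ± 0.21 in fat body over tubules. LOC655215 (sup-9) was 16.7 to 18.6 CPM in fat body, 1.07 to 2.09 CPM in tubules and 6.09 to 7.28 CPM in control, with 3.38 ± 0.27 in fat body over tubules.

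The summed muscle genes were highest in fat body and lowest in tubules, an order that many but not all of these excitability genes had. In LOC657708 and LOC664574 tubules and control overlapped. The summed nervous system genes, which need not all mark nerve, were highest in fat body and near each other in tubules and control. Of the 29 muscle genes, 17 rose and 8 fell in fat body over control, and 2 rose and 20 fell in tubules over control. Of the 19 nervous system genes, 5 rose and 3 fell in fat body over control, and 3 rose and 12 fell in tubules over control. The ryanodine receptor LOC655265, the calcium release channel of muscle, was higher by 1.51 ± 0.22 in fat body over control, lower, at -2.17 ± 0.23, in tubules over control and higher by 3.68 ± 0.24 in fat body over tubules. What share of the differences in channels and pumps goes with muscle or nerve in the fat body libraries was not tested.

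The sodium/potassium ATPase, whose catalytic alpha and smaller beta subunits exchange sodium for potassium across the cell membrane, had 8 genes in the table. In fat body over control 5 rose and 1 fell, in tubules over control 1 rose and 5 fell, and in fat body over tubules 6 were higher and none lower. The main alpha subunit LOC663833 had 757, 1063 and 1169 CPM in fat body, 438, 414 and 423 CPM in tubules and 577, 553 and 512 CPM in control. Fat body was highest and tubules lowest without overlap, with 0.86 ± 0.17 (adjusted p = 0.0022) in fat body over control, -0.37 ± 0.17 (adjusted p = 0.085) in tubules over control and 1.23 ± 0.17 (adjusted p = 0.00013) in fat body over tubules. The beta-1 subunit LOC662497 had 222, 228 and 239.5 CPM in fat body, 192, 199.8 and 192 CPM in tubules and 112, 123 and 112 CPM in control. Both organs were above control, by 0.99 ± 0.12 (adjusted p = 0.00023) in fat body and 0.75 ± 0.12 (adjusted p = 0.00057) in tubules. With the authors' size factors the value for tubules was 0.26 (adjusted p = 0.122).

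The 5 beta-2 genes lie in a single run, and all 5 were lower in tubules than in control and higher in fat body than in tubules. LOC100141520 had 72.3, 66.4 and 76.1 CPM in fat body, 6.10, 10.8 and 7.69 CPM in tubules and 32.7, 29.9 and 29.5 CPM in control, and LOC661678 had 123, 161 and 116 CPM in fat body, 42.7, 40.5 and 32.6 CPM in tubules and 122, 135 and 110.2 CPM in control. In LOC100141520 the 3 groups were apart, while in LOC661678 fat body and control overlapped above the tubules. The log2 fold changes in tubules over control were -2.596 ± 0.21 for LOC103312937, -1.91 ± 0.22 for LOC100141520, -1.66 ± 0.19 for LOC661678, -1.62 ± 0.24 for LOC103312935 and -0.68 ± 0.17 for LOC661633. In fat body over control they were 1.24 ± 0.24 (adjusted p = 0.0019) for LOC103312935, 1.22 ± 0.21 (adjusted p = 0.0012) for LOC100141520 and 0.62 ± 0.17 (adjusted p = 0.0098) for LOC661633, while 0.45 ± 0.19 (adjusted p = 0.063) for LOC103312937 and 0.12 ± 0.18 (adjusted p = 0.55) for LOC661678 did not pass. With library totals alone, LOC661633 was at 0.36 (adjusted p = 0.104).

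The second alpha subunit, LOC661036, behaved unlike the others. It had 6.13, 0.909 and 2.63 CPM in fat body, 6.67, 7.79 and 3.28 CPM in tubules and 10.2, 10.6 and 29.1 CPM in control, with control replicate 3 far above the other libraries. The difference of -2.37 ± 0.69 (adjusted p = 0.014) in fat body over control did not pass without fat body replicate 3 (-2.25, adjusted p = 0.0512).

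Among chloride channels opened by transmitters or pH, the pH-sensitive channel Phcl had 29.9, 49.98 and 55.1 CPM in fat body, 7.03, 3.61 and 7.02 CPM in tubules and 23.1, 22.4 and 17.5 CPM in control. The groups were apart, with 1.099 ± 0.31 (adjusted p = 0.012) in fat body over control, -1.83 ± 0.32 (adjusted p = 0.00099) in tubules over control and 2.93 ± 0.33 in fat body over tubules. The histamine-gated channel Hiscl1, the transmitter receptor of insect visual circuits, had 0.733, 0.682 and 0.270 CPM in fat body, 7.29, 4.54 and 9.23 CPM in tubules and 6.999, 7.40 and 5.64 CPM in control. Fat body was far below the others, which overlapped, at -3.55 ± 0.41 (adjusted p = 0.0002) against control and -3.62 ± 0.41 (adjusted p = 4e-05) against tubules. The glutamate-gated channel Glucl, a target of avermectins, had 55.7, 72.1 and 64.4 CPM in fat body, 17.4, 17.6 and 17.9 CPM in tubules and 49.9, 47.7 and 44.0 CPM in control and was above its tubule level in fat body by 1.86 ± 0.16 (adjusted p = 7e-06). Its value in fat body over control, 0.44 ± 0.15 (adjusted p = 0.028), did not pass when any 1 of fat body replicates 2 and 3 and the 3 control libraries was left out (adjusted p = 0.0502 to 0.112).

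TRP channels and the amiloride-type sodium channels are mostly sensory or epithelial in insects, and most of these fell in fat body. All 3 genes titled painless, a channel of heat and touch sensing in Drosophila, fell in fat body over control, were lower in fat body than in tubules and did not pass in tubules over control. LOC103312195 had 7.86, 10.3 and 8.37 CPM in fat body, 52.9, 93.6 and 34.2 CPM in tubules and 40.9, 55.6 and 66.5 CPM in control. Fat body was below the other groups, which overlapped, at -2.62 ± 0.37 (adjusted p = 0.00047) against control and -2.77 ± 0.37 against tubules. LOC107398213 had 3.60, 6.19 and 2.23 CPM in fat body, 22.4, 41.1 and 16.5 CPM in tubules and 25.2, 26.3 and 24.1 CPM in control, with the same order and values of -2.65 ± 0.43 (adjusted p = 0.0009) against control and -2.73 ± 0.43 against tubules. The TRPM gene LOC663729 had 118, 183 and 199 CPM in fat body, 114, 114 and 115 CPM in tubules and 82.7, 85.7 and 83.6 CPM in control and rose by 0.99 ± 0.19 (adjusted p = 0.0022) in fat body over control. Its difference of 0.54 ± 0.19 between fat body and tubules did not pass when any 1 of fat body replicates 2 and 3, the 3 tubule libraries and control replicates 2 and 3 was left out (adjusted p = 0.0504 to 0.105).

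Of 4 tested genes with titles of the Nach type (amiloride-type sodium channels), 3 fell in fat body over control and 3 were lower in fat body than in tubules. All were rare. LOC660323 had 0.200, 0 and 0.270 CPM in fat body, 0.879, 1.01 and 1.27 CPM in tubules and 3.37, 3.42 and 1.57 CPM in control, from 3, 0 and 4 reads in fat body, and its value in fat body over control was -4.14 ± 0.66 (adjusted p = 0.00083), the lowest of all members. Its value of -1.40 ± 0.52 (adjusted p = 0.041) in tubules over control did not pass when any 1 of the 3 tubule libraries and control replicates 1 and 2 was left out (adjusted p = 0.0635 to 0.12). LOC103313553 had 0.200, 0.227 and 0.0675 CPM in fat body, 1.29, 1.44 and 1.14 CPM in tubules and 0.389, 0.506 and 0.251 CPM in control. It rose by 1.74 ± 0.39 (adjusted p = 0.0037) in tubules over control and was lower in fat body than in tubules, at -2.89 ± 0.43. For the Nach-type genes, 1 of the 3 falls in fat body over control passed without control replicate 3, without fat body replicate 2 or without fat body replicate 3.

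The remaining channels and the glycine transporter differed in pattern. The sodium leak channel LOC661363, which in animals studied keeps neurons near firing, had 12.1, 22.2 and 13.4 CPM in fat body, 6.36, 7.94 and 3.14 CPM in tubules and 22.6, 22.6 and 18.05 CPM in control. Tubules were below the overlapping other groups, at -1.86 ± 0.36 (adjusted p = 0.0018) against control. The trimeric intracellular cation channel type B LOC659661, a counter-ion channel of the endoplasmic reticulum, had 309.99, 212 and 214 CPM in fat body, 80.3, 104 and 48.6 CPM in tubules and 131, 139 and 189 CPM in control. Tubules were lowest, with -0.98 ± 0.29 (adjusted p = 0.016) over control and 1.66 ± 0.30 (adjusted p = 0.00067) in fat body over tubules. The glycine transporter LOC661149, which carries its transmitter with sodium and chloride and so met the title rule, had 1.40, 2.44 and 2.43 CPM in fat body, 0.414, 1.15 and 0.468 CPM in tubules and 4.02, 4.43 and 5.14 CPM in control. It was lower in tubules than in control, at -2.76 ± 0.42 (adjusted p = 0.00047). The log2 fold change of -1.11 ± 0.38 in fat body over control did not pass when any 1 of fat body replicates 1 and 3 and control replicates 2 and 3 was left out (adjusted p = 0.0518 to 0.106). The cyclic nucleotide-gated channel LOC655749 was 7.93 to 8.84 CPM in fat body, 6.78 to 11.8 CPM in tubules and 11.8 to 15.7 CPM in control. Its log2 fold change of -0.68 ± 0.24 in fat body over control did not pass when any 1 of the 3 fat body libraries and control replicates 1 and 3 was left out (adjusted p = 0.0563 to 0.156).

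A last set of members varied strongly between libraries of the same group. Sodium/hydrogen exchanger 10 is the sperm-specific exchanger of mammals, and HCN channels are opened by hyperpolarization, are modulated by cyclic nucleotides and pass potassium and sodium. All 6 exchanger 10 genes fell in fat body over control, at log2 fold changes of -2.45 to -1.77, and none passed in tubules over control or in fat body over tubules. Of 7 HCN genes, 6 fell in fat body over control. Summed, the exchanger 10 genes had 72.3, 15.3 and 35.6 CPM in fat body, 103, 124 and 43.7 CPM in tubules and 119.6, 109 and 311 CPM in control. The HCN genes summed to 50.04, 11.5 and 18.6 CPM in fat body, 64.4, 95.2 and 36.4 CPM in tubules and 54.1, 56.2 and 165 CPM in control. In both sums control replicate 3 was the highest library and fat body replicate 1 the highest of its group, and tubule replicate 3 was the lowest of its group.

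**Figure D5:**
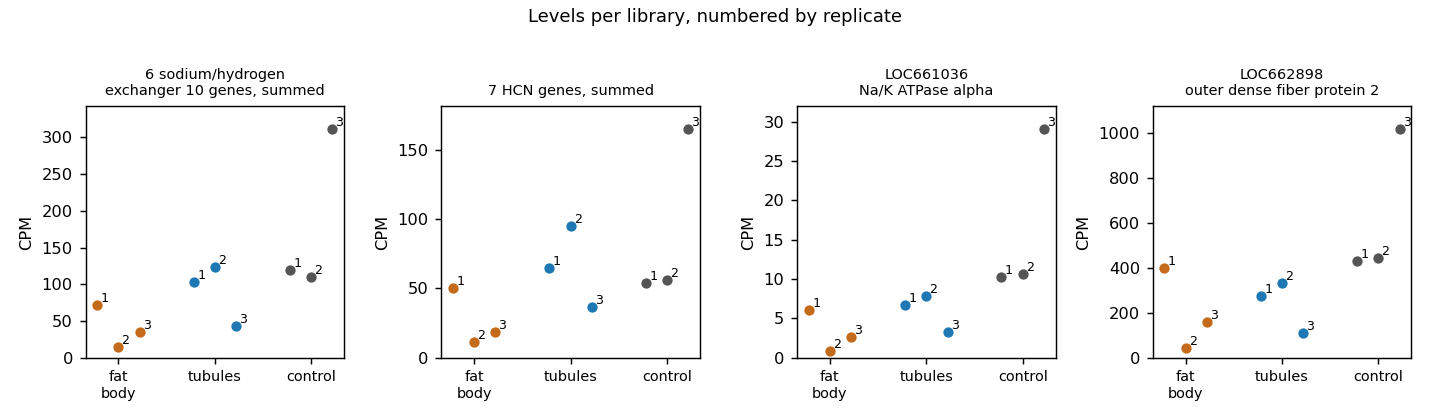
CPM per library (points numbered by replicate, y axis from 0) of the summed sodium/hydrogen exchanger 10 and HCN genes, the sodium/potassium ATPase alpha subunit LOC661036 and outer dense fiber protein 2 (LOC662898), in fat body, tubules and control. Control replicate 3 is highest in each panel, at 311, 165, 29.1 and 1016 CPM.

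Single genes of this set show the same. LOC103314743, an exchanger 10-like gene, had 10.1, 1.82 and 4.73 CPM in fat body, 12.4, 17.96 and 4.01 CPM in tubules and 21.8, 19.2 and 49.5 CPM in control. The difference of -2.45 ± 0.72 (adjusted p = 0.014) in fat body over control did not pass without fat body replicate 3 (-2.35, adjusted p = 0.0503). LOC103313851, of the HCN genes, had 20.9, 4.20 and 7.49 CPM in fat body, 21.9, 33.3 and 8.89 CPM in tubules and 20.7, 21.1 and 62.2 CPM in control, and its value in fat body over control was -1.68 ± 0.71 (adjusted p = 0.06). LOC658805, titled H member 2 and next to an HCN gene, had 1.199, 0.114 and 0.608 CPM in fat body, 2.95, 1.66 and 1.54 CPM in tubules and 2.01, 2.59 and 8.21 CPM in control, with -2.75 ± 0.77 (adjusted p = 0.012) in fat body over control.

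Without control replicate 3, 3 of the 6 exchanger 10 genes and 1 HCN gene fell in fat body over control, and without fat body replicate 3 the numbers were 2 and 1. Without fat body replicate 2, 1 HCN gene fell. Without fat body replicate 1, 5 exchanger 10 genes and 4 HCN genes were lower in fat body than in tubules, against 0 and 1 with all libraries, and without both control replicate 3 and fat body replicate 1 the numbers were 6 and 5. In the summed testis and sperm list, as in the exchanger 10 and HCN sums, control replicate 3 was the highest library. Fat body replicate 1 was likewise the highest of its group and tubule replicate 3 the lowest of its group. The lowest library of all differed, with tubule replicate 3 in the list and fat body replicate 2 in the exchanger 10 and HCN sums. Genes of the list did not all change in the same direction. Single genes of the V-type ATPase, carbonic anhydrase and muscle lists also had control replicate 3 highest, with the same highest fat body and lowest tubule library. Outer dense fiber protein 2 (LOC662898), a part of the sperm tail in mammals, had 398, 43.3 and 160.2 CPM in fat body, 273, 331 and 110.4 CPM in tubules and 429, 442 and 1016 CPM in control. The 28 testis and sperm genes summed to 2305, 1209 and 1703 CPM in fat body, 1592, 1729 and 1167 CPM in tubules and 2052, 2088 and 3738 CPM in control, and no gene of the list was at 0 in all libraries of a group. Of these 28 genes 6 rose and 9 fell in fat body over control, 7 rose and 9 fell in tubules over control, and 9 were higher and 8 lower in fat body than in tubules. In the list, 9 are enzymes of spermine and spermidine, which other tissues use too. The part of testis RNA in the differences was not tested. The 6 exchanger 10 genes lie in 2 runs of 3 neighbours, and 2 of their identifiers, LOC662093 and LOC103314743, fall on the same gene record of icTriCast1.1, so their counts may not be separate measurements.

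Levels of different members were compared per kilobase of coding sequence, taken from the protein length. In fat body the calcium pump LOC658328 was highest, at 1427 ± 90.0 CPM per kilobase (SD, n = 3), followed by LOC657708 at 359.5 ± 35.7 and the sodium/potassium ATPase alpha subunit LOC663833 at 319 ± 68.5. The ranges of LOC657708 and LOC663833 overlapped. In tubules the beta-1 subunit LOC662497 led at 207 ± 4.77, above LOC658328 at 196 ± 5.78, and the next members, zinc transporter 2 (LOC655654) at 147 ± 38.8 and LOC663833 at 136 ± 3.77, overlapped each other. In control LOC658328 was again first at 447 ± 26.5, followed by the intracellular cation channel LOC659661 at 185 ± 37.99 and LOC663833 at 175 ± 10.6, which overlapped.

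Genes outside the membership were counted in the same libraries. Of all genes tested, 32.2% rose and 36.9% fell in fat body over control. In tubules over control 32.6% rose and 30.2% fell, and in fat body over tubules 38.8% were higher and 41% lower. Counts near these shares show nothing particular to a list, and the gut counts in fat body over control lay near them. Of 5 aquaporins, which pass water, 1 rose and 4 fell in fat body over control, and 2 rose and 1 fell in tubules over control. Of 15 acetylcholine receptor genes, 1 rose and 3 fell in fat body over control, 1 rose and 11 fell in tubules over control, and 10 were higher and 2 lower in fat body than in tubules. Of 7 carbonic anhydrases, which supply protons and bicarbonate to ion transport, 2 rose and 1 fell in fat body over control, and 1 rose and 4 fell in tubules over control. Of 3 receptors for gamma-aminobutyric acid, 1 rose and 1 fell in fat body over control, and none rose and 2 fell in tubules over control. Of 64 gut genes, 21 of which are titled as cuticular proteins or inhibitors and need not mark gut, 22 rose and 23 fell in fat body over control, and 15 rose and 25 fell in tubules over control. No kinase of chloride cotransporters was found among the listed genes by title.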

How the data were processed

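Per the labels' protocols, the 9 libraries were made from total RNA (TRIzol, DNase I) and their reads were aligned to assembly Tcas5.2. The submitters' processing notes list Trimmomatic 0.32. The sources used here do not name the aligner, the counting program or the annotation version, or say whether strand was used. The authors deposited 1 table of 5467 genes, per the file headers with estimated counts per gene and library, a normalized signal (counts divided by the authors' size factors), FPKM, TPM, log2 fold changes, gene length and protein length. All deposited expected counts were whole (100% with no remainder), so no rounding was needed. Library totals were recovered from the deposited FPKM and the gene lengths, and deposited TPM served to choose the highest member of each ion group. The authors' deposited table lists only genes past an absolute log2 fold change of 1 in at least 1 comparison.

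Counts were tested with edgeR 4.0.16 (quasi-likelihood F test, R 4.3.3) on all 9 libraries in 3 groups of 3, with TMM scaling of the recovered totals and edgeR's filter on low counts, which kept 5358 genes. P-values were adjusted by Benjamini and Hochberg's method over all of these in each comparison, with 0.05 as the threshold, and each standard error was taken from the fold change and its F statistic. CPM were computed as counts over the TMM-scaled totals that edgeR gave. The script was tested on simulated data in which few genes differed between groups, unlike here, so that test does not bear on the choice of scaling. Alternatives were other scalings, no filter, DESeq2 1.42.0, only the groups compared, a replicate block and each library left out. Samples with the same replicate number did not deviate together, so the numbers were not taken to pair samples.

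The members, ion groups, marker lists and tests were chosen with earlier results of these data known. Genes were named by a rule: in each ion group the member with the highest mean TPM and those that passed with the highest and the lowest fold change in each comparison, the 5 highest and 5 lowest over all members in each comparison, and all sodium/potassium ATPase subunits. This gave 51 genes, and a further 21, with the untested LOC107399289, were named after their values were seen. Names and gene neighbours came from RefSeq on assembly icTriCast1.1, which matched 91 of the 95 members, and no coordinates were used. Most deposited gene lengths (72.7%) were within 10% of the gene's span there, introns included, so levels of different genes were set per coding length. Sequences were not used here.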

Additional observations from a re-analysis of the deposited data

Results flagged for a closer look

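For 27 members the fat body and the tubules differed from the same 3 control libraries in opposite directions, both past the threshold. The difference between the organs, fat body over tubules with edgeR, passed for all of them. It comes from the same fit and spans both opposite differences. Its passing was thus nearly fixed by the choice of these members and adds no support. How many of all genes tested have this pattern was not counted.

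Lower in fat body and higher in tubules were 8 members. Of these, LOC657106, LOC659051 and LOC659638 lost the call in fat body over control without control replicate 3, which left 5, and with DESeq2 LOC663852 lost it too, which left 4. Among all 8, the log2 fold change of fat body over tubules was -5.77 for LOC663082 and -4.58 for LOC100142140, both inward rectifiers, and -2.73 for the irk-1 gene LOC659051. It was -4.36 for the cys-loop subunit Tcas_7589. For the exchangers it was -2.82 for LOC663852 and -2.78 for LOC657106, and for the zinc transporters it was -2.54 for LOC655654 and -1.72 for LOC659638.

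The other 19 members were higher in fat body and lower in tubules, and 17 of them were still called in both directions without control replicate 3, the exceptions being Glucl and LOC655919. Potassium channels and their subunits made up 11 of them, with 4.62 for LOC658523, 4.14 for LOC658668, 4.07 for LOC663617, 3.85 for LOC663676, 3.49 for LOC100142617, 3.38 for LOC655215, 2.33 for LOC660459, 2.27 for LOC657078, 2.08 for LOC662676, 1.87 for LOC655814 and 1.83 for the subfamily T member LOC655919. The sodium/calcium exchanger LOC662969 had 3.15, the muscle calcium channel LOC659557 had 3.13 and the calcium pump LOC658328 had 2.87. Among sodium/potassium ATPase beta-2 genes the values were 3.13 for LOC100141520, 2.86 for LOC103312935 and 1.30 for LOC661633. The chloride channels Phcl and Glucl had 2.93 and 1.86. Muscle marker genes summed to 38814 to 48361 CPM in fat body, 2420 to 3172 CPM in tubules and 17062 to 17337 CPM in control, and their part in these differences was not tested.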

How the results depend on the processing

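Of the members called with all libraries and the TMM scaling, 40 of 67 in fat body over control, 45 of 50 in tubules over control and 67 of 72 in fat body over tubules passed under every alternative run, and none of them changed direction. The number of members that fell in fat body over control was 18 to 35 when 1 library was left out, the lowest without fat body replicate 3 and the next, 19, without control replicate 3. The number that fell in tubules over control was 53 with the authors' size factors. These factors shifted the median of all genes by 0.16, -0.49 and 0.65 (fat body over control, tubules over control, fat body over tubules). Plain library totals moved it at -0.26, -0.23 and -0.02, relative log expression by 0.20, 0.04 and 0.16, and upper-quartile factors at -0.13, -0.22 and 0.09. The median of the members in fat body over control was 0.029 with relative log expression, 0.029 with DESeq2, -0.43 with library totals and -0.0098 with the authors' factors. In tubules over control it was -1.01 with library totals, -1.26 with the authors' factors, -0.99 with upper-quartile factors, -0.86 to -0.41 with 1 library left out and -0.43 without both control replicate 3 and fat body replicate 1. In fat body over tubules it was 1.01 with the authors' factors.

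Values that had not passed changed sign, most of them within 0.5 of 0, with LOC662998 and LOC103313851 at -0.71 and -0.70 in tubules over control, and the cause was not tested. With library totals this gave -0.00382 for LOC658471, -0.015 for LOC654909 and -0.13 for LOC661678 in fat body over control, and -0.17 for LOC107398213, -0.10 for LOC103312195, -0.16 for Hiscl1 and -0.025 for LOC663026 in tubules over control. With the authors' factors it gave -0.40 for LOC107398213, -0.10 for LOC657708, -0.32 for LOC103312195, -0.43 for Hiscl1, -0.15 for LOC659513, -0.044 for LOC663729 and -0.29 for LOC663026 in tubules over control, 0.023 for LOC663791 in fat body over control and 0.54 for LOC655749 in fat body over tubules. Upper-quartile factors gave -0.14 for LOC107398213, -0.057 for LOC103312195, -0.16 for Hiscl1 and -0.017 for LOC663026 in tubules over control, and -0.00496 for LOC661678 in fat body over control. Relative log expression and DESeq2 gave 0.0635 and 0.0631 for LOC663791 in fat body over control, and 0.0182 and 0.0185 for LOC655749 in fat body over tubules. With 1 library left out, tubules over control ran from -0.38 to 0.33 for LOC107398213, -0.32 to 0.43 for LOC103312195, -0.17 to 0.30 for Hiscl1, -1.001 to 0.023 for LOC662998 and -1.17 to 0.046 for LOC103313851. In the same way fat body over control ran from -0.034 to 0.22 for LOC661678, and fat body over tubules from -0.30 to 0.091 for LOC655749. Without both control replicate 3 and fat body replicate 1, tubules over control was -0.039 for Hiscl1 and 0.025 for LOC103313851.

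Deviations of libraries with the same replicate number correlated at -0.46 to 0.38. With the replicate block, 29 members rose and 26 fell in fat body over control, 17 rose and 31 fell in tubules over control, and 43 were higher and 28 lower in fat body than in tubules. The block left 1 of 6 HCN calls in fat body over control and gave -0.054 for LOC107398213 in tubules over control. Low-count genes such as LOC659210, LOC660323 and LOC657975 rest on few reads, so their fold changes are imprecise.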
